A study of Mus musculus with 9 samples.

Results

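The leukocyte integrin subunits described here are the 10 genes Itga4, Itga5, Itga6, Itgal, Itgam, Itgax, Itgb1, Itgb2, Itgb3 and Itgb7. They were taken by name from a table of 55536 mouse genes, and all 10 were found in it. RNA was sequenced in bulk from mouse acute myeloid leukemia (AML) cells in 3 groups of 3 libraries. The label AML-WT-c-kit- names cells sorted without the surface receptor c-kit. Cells sorted with it are labelled AML-WT-c-kit+. The third group has the label AML-IRF7−/−-c-kit+. They are called WT c-kit-, WT c-kit+ and the IRF7−/−-labelled (or labelled) libraries below. In every group the leukemia was made by infecting c-kit+ cells of C57BL/6J mice with a retrovirus that carries the MLL-AF9 fusion and GFP, so that all groups share this oncogene and the labels list GFP overexpression for each. For the WT groups the infected cells came from WT mice, and for the third group from IRF7−/− mice, in which a PGK-beta-geo cassette replaces exons 2 and 3 of Irf7. GFP+ leukemia cells (1000000 per mouse) were moved into hosts of 6 to 8 weeks of age that had not been irradiated, and on day 18 the bone marrow was sorted by c-kit, the stem cell factor receptor. The labels do not say whether replicates came from separate mice, so p-values measure the spread between these libraries only.

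Kit followed the sort, with 0.52 to 3.03 TPM in WT c-kit- and 50.7 to 85.7 TPM in the c-kit+ libraries. TPM (transcripts per 1000000) is a level scaled by gene length and library total, so it can be set side by side between genes. Irf7 went against one label: it stood at 3.36 to 5.31 TPM in WT c-kit+ but at 5.97 to 12.8 TPM in the IRF7−/−-labelled libraries, and the value of the whole gene also counts exons outside the replaced part. That group is therefore named by its label throughout, also where a direction is given. Hoxa9, Meis1 and the leukocyte gene Ptprc (CD45) were present in all libraries, at no less than 162, 35.4 and 104 TPM. Their levels differed between WT c-kit-, WT c-kit+ and labelled libraries. Means were 167, 189 and 246 TPM for Hoxa9, 39.2, 42.1 and 63.4 TPM for Meis1 and 278, 115 and 119 TPM for Ptprc. Mpo, from the same list, had 431, 4855 and 3724 TPM. The neutrophil granule and surface list (Ly6g, Camp, Ltf, Ngp, Mmp8, Retnlg) summed to 1174 to 6219 TPM in WT c-kit-, 13516 to 25249 TPM in WT c-kit+ and 283 to 546 TPM in the IRF7−/−-labelled libraries, with none of its 6 genes at 0 throughout a group. Camp and Ngp carried most of the sum in WT c-kit+ (means 8553 and 10420 TPM), while Mmp8, a granule protease, was lower there than in WT c-kit- (4.68 against 74.6 TPM; −3.79, limma adjusted p = 0.000184) and Retnlg had 9.91 against 53.0 TPM (limma adjusted p = 0.0718). These 4 are named after their values were seen. In WT c-kit+ the 10 most abundant genes held 13.1 to 17.3% of all TPM, and elsewhere 9.39 to 10.3%.

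Integrins are cell surface receptors made of 1 alpha and 1 beta subunit, and a subunit reaches the surface only with a partner. On leukocytes the β2 integrins pair Itgb2 (CD18) with Itgal (LFA-1), Itgam (CD11b, Mac-1) or Itgax (CD11c) and bind ICAMs, complement fragments and fibrinogen. The α4 subunit pairs with Itgb1 to form VLA-4, a receptor for VCAM1 and fibronectin, or with Itgb7 to form the receptor for MAdCAM-1 of gut vessels. Itga5 and Itga6 pair with Itgb1 as receptors for fibronectin and laminin, and Itgb3 pairs with Itgav or with the platelet subunit Itga2b. In blood stem cells and leukemia cells these receptors hold cells in the marrow and guide their exit into tissues.

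On GRCm38, with GENCODE M21, several of the genes share a chromosome. Itgal (ENSMUSG00000030830, chr7:127296260-127335138), Itgam (ENSMUSG00000030786, chr7:128062640-128118491) and Itgax (ENSMUSG00000030789, chr7:128129547-128150657) stand on the forward strand of chromosome 7, where Itgax is followed by Itgad, another α partner of Itgb2. Itga4 (ENSMUSG00000027009, chr2:79255426-79333123) and Itga6 (ENSMUSG00000027111, chr2:71745616-71858416) are on the forward strand of chromosome 2. Itga5 (ENSMUSG00000000555, chr15:103344286-103366763) and Itgb7 (ENSMUSG00000001281, chr15:102215995-102231944) are on the reverse strand of chromosome 15. Itgb1 (ENSMUSG00000025809, chr8:128685654-128733200), Itgb2 (ENSMUSG00000000290, chr10:77530252-77565708) and Itgb3 (ENSMUSG00000020689, chr11:104608000-104670476) stand alone on forward strands.

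Promoter windows, from 250 bases before to 50 bases after the gene start, were found in the RefSeq set for GRCm38.p6 for 6 of the 10 genes and not for Itga6, Itgal, Itgb2 and Itgb3. Those of Itga4 and Itgb7 are shown because they form 1 receptor, whose β gene differed most between the sorted WT groups, and that of Itgam because it was the Itgb2 partner with the largest difference between the c-kit+ groups. The windows are chr2:79255176-79255475 (forward strand), chr15:102231886-102232185 (reverse strand) and chr7:128062390-128062689 (forward strand), each written along the gene. Capitals mark matches, on either strand, to words bound by factors that drive myeloid genes. For the factor PU.1 the word was GAGGAA. For the RUNX factors the word was TGTGGT.
Itga4 promoter: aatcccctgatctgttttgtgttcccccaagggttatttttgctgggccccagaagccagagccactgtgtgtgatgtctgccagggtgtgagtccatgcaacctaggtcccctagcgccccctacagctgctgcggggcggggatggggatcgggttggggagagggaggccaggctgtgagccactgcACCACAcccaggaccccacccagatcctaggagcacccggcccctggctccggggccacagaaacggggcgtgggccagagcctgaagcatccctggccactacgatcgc
Itgb7 promoter: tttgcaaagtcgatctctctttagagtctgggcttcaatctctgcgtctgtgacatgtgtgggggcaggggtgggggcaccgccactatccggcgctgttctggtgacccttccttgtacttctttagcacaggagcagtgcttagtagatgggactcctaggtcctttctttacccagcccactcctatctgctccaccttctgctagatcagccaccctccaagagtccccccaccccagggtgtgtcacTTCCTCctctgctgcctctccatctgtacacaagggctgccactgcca
Itgam promoter: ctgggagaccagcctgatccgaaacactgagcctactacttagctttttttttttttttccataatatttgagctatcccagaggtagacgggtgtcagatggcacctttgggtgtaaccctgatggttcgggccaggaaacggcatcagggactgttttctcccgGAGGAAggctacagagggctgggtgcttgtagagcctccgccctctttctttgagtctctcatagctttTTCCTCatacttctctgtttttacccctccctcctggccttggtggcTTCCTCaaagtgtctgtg
Itgam held 3 PU.1 words, the first bases of which lie at −84, −15 and 32 from the gene start, Itgb7 held 1 at 2, and Itga4 held 1 RUNX word at −60. Over the 6 promoters, 4 held a PU.1 word (28.1% of all 32544 promoters of this length did), 2 a RUNX word (16.7%), 4 a GC box GGGCGG (35.9%), none the interferon factor (IRF) word of GAAA repeated after a gap of 2 bases (3.45%) and none TATAAA (13.6%). The words searched do not overlap each other in these windows, and a match is a description of letters only.

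The study also measured Itga4 and Itgb1, the pair of VLA-4, with PCR primers, shown here for where on the transcript they sit. Each reverse primer matched the reverse complement of the transcript and is thus written 5′ to 3′.
Itga4 forward: cgacttgagaggtgctgtctacat
Itga4 reverse: accaacggctacatcaacatatcca
Itgb1 forward: aggacattgatgactgctggttct
Itgb1 reverse: cacagttgtcacggcactcttg
The Itga4 product spans 172 bases from exon 11 of 28 (chr2:79287033-79287056) to the joint of exons 12 and 13 (chr2:79288287-79288297 and chr2:79288822-79288835), and matched 3 of 5 annotated transcripts. The Itgb1 product spans 290 bases from exon 14 of 16 (chr8:128724345-128724368) to exon 16 (chr8:128732040-128732061), and matched 3 of 4. The TPM below sum over all transcripts of a gene and are not limited to these stretches. The study describes integrin α4 as strongly lower and integrin β1 as slightly higher in AML-IRF7−/− cells. Its text names no c-kit sort for that result, so the cells may differ from those compared here.

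The order of the subunits differed between the groups. In WT c-kit- the highest levels were those of Itgb7 (483 ± 26.7 TPM; SD, n = 3, as for all values given as mean ± SD) and Itgb2 (430 ± 83.8 TPM), whose ranges overlapped, followed by Itgam, Itgal, Itga4, Itgb1, Itga5, Itga6, Itgb3 and Itgax (6.83 ± 0.855 TPM). Of these neighbours, Itga5 and Itga6 also overlapped. In WT c-kit+ the order was Itgb2, Itgam, Itgal, Itga6, Itgb1, Itga4, Itgb7, Itga5, Itgb3 and Itgax. The neighbours Itgb2 and Itgam, Itgal and Itga6, Itgb1 and Itga4, and Itgb7 and Itga5 overlapped. Itga4 also overlapped with Itga6 and Itgal, so the order of these is open. In the labelled libraries the order was Itgb2, Itgam, Itgb1, Itga4, Itgal, Itga5, Itgb7, Itga6, Itgb3 and Itgax. Itgb7 (15.7 to 56.4 TPM) overlapped with both its neighbours and also with Itgal and Itga4, so its place is open. The summed level of the 10 genes was 1400 to 1713 TPM in WT c-kit-, 707 to 929 TPM in WT c-kit+ and 562 to 632 TPM in the IRF7−/−-labelled libraries, so that no group overlapped another.

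**Figure D1:**
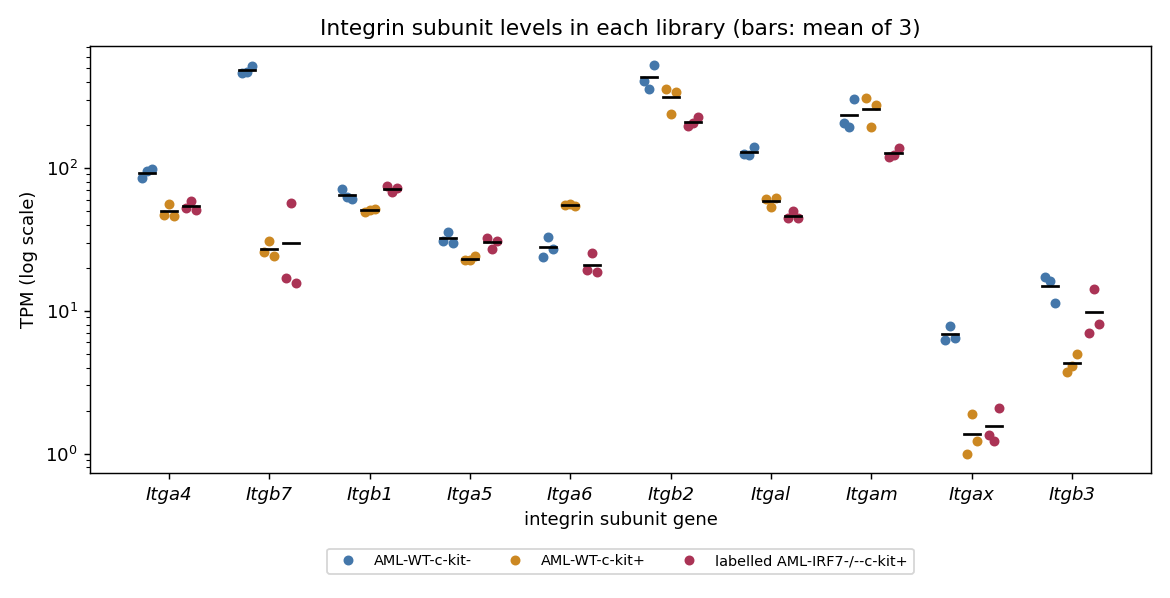
TPM of the 10 integrin subunit genes in each of the 9 libraries, on a log axis; a point is 1 library, a bar the mean of 3, and colors give the 3 groups. Itgb7 stands at 463 to 513 TPM in WT c-kit- and at 15.7 to 56.4 TPM in all 6 c-kit+ libraries, and Itga6 is highest in WT c-kit+.

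The design allows 3 comparisons, namely of c-kit+ with c-kit- cells of WT leukemia, of the 2 c-kit+ groups, and of the labelled libraries with the c-kit- cells. Each pair of groups was fitted with limma on log2(TPM + 1), and a gene was called at a Benjamini-Hochberg adjusted p under 0.05. Fold changes are log2 differences on that scale, which understates changes of low genes, with their standard error (SE). In WT c-kit+ against WT c-kit-, 8 of the 10 subunits were called (41.6% of the 13261 genes tested), 1 higher (14.0% of genes) and 7 lower (27.6%). The groups did not overlap for 9 of 10 (54.4% of genes). In the IRF7−/−-labelled libraries against WT c-kit+, 7 were called (48.0% of 13238 genes), 3 higher (31.9%) and 4 lower (16.1%), and 7 did not overlap (59.1%). Against WT c-kit-, the labelled libraries had 6 called (59.4% of 13510 genes), all 6 lower (28.7%), and 6 not overlapping (67.1%). None was called higher by limma there (30.7% of genes were), and 0 were higher at an unadjusted p under 0.05. Of the 6 calls, 4 were by 1 or more on the log2 scale (Itgal, Itgax, Itgb2 and Itgb7; 20.3% of genes), and 4 of the calls between the WT groups were (Itgal, Itgax, Itgb3 and Itgb7; 14.4%). The 3 comparisons share libraries and are not independent. The median fold change of the 10 was −0.68, 0.00 and −0.81 in these 3 comparisons, beside −0.08, 0.12 and 0.03 over all genes. With each library centred on its median gene, 54.0% of all calls in the first comparison were higher in place of 33.7%. The second had 56.1% in place of 66.4%, and the third 58.1% in place of 51.6%. Under quantile normalization the 3 shares were 54.0, 55.1 and 57.2%. Genes called were 5649, 5921 and 8259 under median centring and 5634, 5912 and 8190 under quantile normalization. Counts below under these scalings stand beside these values. No called subunit changed its direction.

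**Figure D2:**
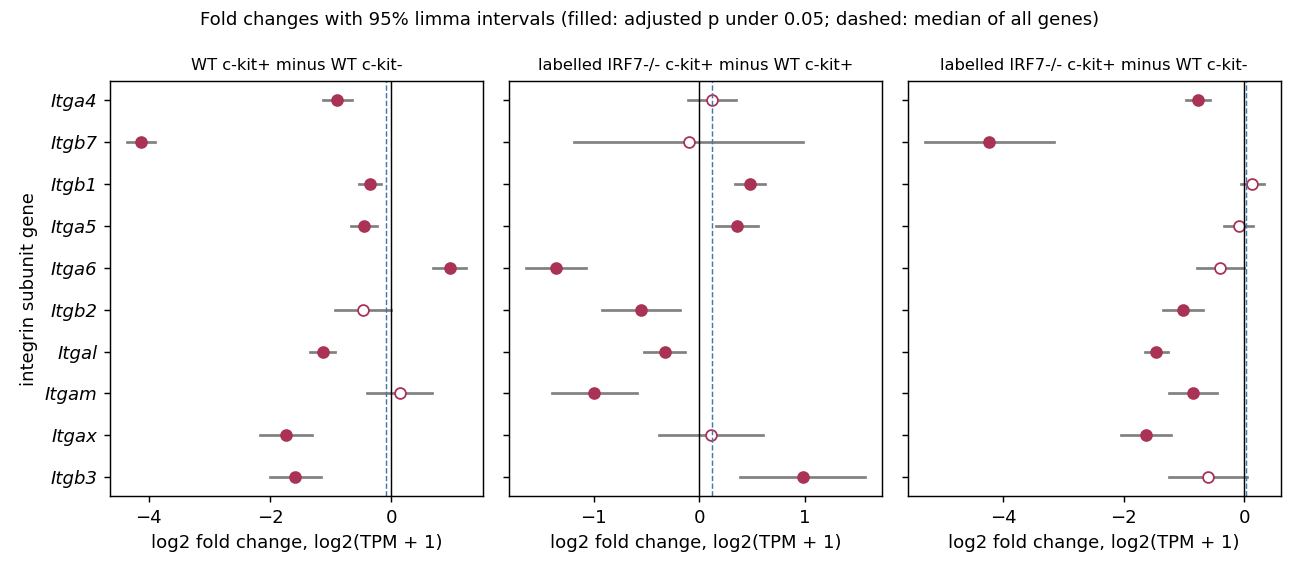
log2 fold change of each subunit on log2(TPM + 1) in the 3 comparisons, with the 95% interval from limma as a line; filled points have an adjusted p under 0.05, and the dashed line is the median of all genes. Itgb7 at −4.12 in the first panel is the farthest from 0 there, and Itga6 lies at 0.96 in the first panel and −1.36 in the second.

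Among the subunits of the α4 integrins (Itga4, Itgb1 and Itgb7), the RNA of Itgb7 differed most with the sort. Values are given for replicates 1, 2 and 3 of a group in that order. Itgb7, the β partner of the gut-homing α4 receptor, stood at 463, 473 and 513 TPM in WT c-kit-, at 25.9, 30.7 and 24.0 TPM in WT c-kit+ and at 17.0, 56.4 and 15.7 TPM in the labelled libraries. All c-kit- libraries were above all c-kit+ libraries, and labelled replicate 2 stood apart from its fellows. The mean was 18.0-fold higher in WT c-kit- than in WT c-kit+ (log2 fold change of WT c-kit+ against WT c-kit- −4.12, SE 0.10, limma adjusted p = 5.8e-06), and the labelled libraries differed from WT c-kit- by −4.23 (SE 0.45, limma adjusted p = 0.000298). Between the c-kit+ groups the difference was −0.10 (95% interval −1.18 to 0.98, limma adjusted p = 0.873). Without labelled replicate 2 that difference was −0.68 (limma adjusted p = 0.00815; 0.00815 to 0.994 over 13 alternatives). In bulk libraries fewer cells that express a gene and less RNA per cell cannot be told apart.

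Itga4, the α subunit of VLA-4, stood at 84.4, 94.8 and 97.7 TPM in WT c-kit-, at 46.8, 56.0 and 45.9 TPM in WT c-kit+ and at 52.8, 58.5 and 50.7 TPM in the labelled libraries. Every c-kit- library was above every c-kit+ library, and the c-kit+ groups overlapped. It was lower in WT c-kit+ than in WT c-kit- by a log2 fold change of −0.89 (SE 0.10, limma adjusted p = 0.000568), and lower in the labelled libraries than in WT c-kit- by −0.76 (SE 0.08, limma adjusted p = 0.000311). Between the c-kit+ groups the difference was 0.12 (95% interval −0.10 to 0.35, limma adjusted p = 0.319) beside a median of 0.12 over all genes. Cerkl, a gene on the other strand, shares 8.04% of the exon bases of Itga4, and the library kit marks no strand. Cerkl was listed at 16.48 to 25.75 TPM in WT c-kit-, 12.01 to 16.05 TPM in WT c-kit+ and 21.3 to 29.56 TPM in the labelled libraries. The part of Cerkl reads in the Itga4 values was not tested.

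Itgb1, the β subunit that Itga4, Itga5 and Itga6 share, stood at 71.4, 62.3 and 61.0 TPM in WT c-kit-, at 49.5, 50.7 and 51.9 TPM in WT c-kit+ and at 74.2, 67.5 and 71.9 TPM in the labelled libraries. WT c-kit+ was the lowest group without overlap, and the other groups overlapped. The labelled libraries were 1.40-fold higher than WT c-kit+ (log2 fold change 0.48, SE 0.06, limma adjusted p = 0.00102) and differed from WT c-kit- by 0.13 (95% interval −0.05 to 0.32, limma adjusted p = 0.179). The lower level in WT c-kit+ than in WT c-kit- (−0.35, SE 0.08, limma adjusted p = 0.0106) lost its call when libraries were centred on their medians (limma adjusted p = 0.0795) or quantile normalized (limma adjusted p = 0.113; 0.00359 to 0.113 over 13 alternatives).

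A ratio of 2 genes within a library does not depend on how that library was scaled. Itga4 over Itgb1 was 1.44 ± 0.222 in WT c-kit-, 0.978 ± 0.114 in WT c-kit+ and 0.761 ± 0.0914 in the labelled libraries, and no 2 groups overlapped. Itgb7 made up 88.1 ± 1.38% of the sum of Itgb1 and Itgb7 in WT c-kit-, 34.6 ± 3.05% in WT c-kit+ and 27.4 ± 15.7% in the labelled libraries, of which replicate 2 stood at 45.5%. Thus Itgb7 was the more abundant of these β messages in c-kit- cells and Itgb1 in all 6 c-kit+ libraries, while the c-kit+ groups overlapped.

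The fibronectin receptor subunit Itga5 had the same calls as Itgb1 in all 3 comparisons. It stood at 30.6, 35.8 and 29.9 TPM in WT c-kit-, at 22.6, 22.8 and 24.2 TPM in WT c-kit+ and at 32.4, 27.1 and 30.7 TPM in the labelled libraries. WT c-kit+ was again the lowest group without overlap. It was lower than WT c-kit- by −0.45 (SE 0.09, limma adjusted p = 0.00711), and the labelled libraries were higher than WT c-kit+ by 0.36 (SE 0.08, limma adjusted p = 0.0126). Labelled and c-kit- libraries differed by −0.09 (95% interval −0.33 to 0.15, limma adjusted p = 0.471).

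The laminin receptor subunit Itga6 was the only subunit called higher in WT c-kit+ than in WT c-kit- (14.0% of genes were). Between the c-kit+ groups it was called with a difference of 1 or more on the log2 scale (11.7% of all genes), as Itgam was under median centring (−1.07) and quantile normalization (−1.09) and Itgb3 at a pseudocount of 0.1 (1.11). Itgam was also called at this size without labelled replicate 3 (−1.05) or WT c-kit+ replicate 2 (−1.19). So was Itgb3 without labelled replicate 1 (1.17), labelled replicate 3 (1.07) or WT c-kit+ replicate 3 (1.07). Itga6 stood at 23.9, 32.95 and 26.9 TPM in WT c-kit-, at 55.2, 55.6 and 54.1 TPM in WT c-kit+ and at 19.1, 25.5 and 18.5 TPM in the labelled libraries. The WT c-kit+ libraries were the highest and differed little among themselves, and the other groups overlapped. Its mean was 1.97-fold higher in WT c-kit+ than in WT c-kit- (log2 fold change 0.96, SE 0.11, limma adjusted p = 0.000784) and 2.61-fold higher in WT c-kit+ than in the labelled libraries (−1.36 for labelled against WT c-kit+, SE 0.12, limma adjusted p = 0.000325). Labelled libraries differed from WT c-kit- by −0.39 (95% interval −0.78 to −0.01, limma adjusted p = 0.0716). The 4 annotated genes that overlap it were listed at no more than 0.16 TPM.

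Among the α subunits that pair with Itgb1, Itga6 was 18.3 ± 1.63% of the sum of Itga4, Itga5 and Itga6 in WT c-kit-, 43.1 ± 1.51% in WT c-kit+ and 19.9 ± 2.60% in the labelled libraries. Itga4 held 60.6 ± 2.62%, 38.7 ± 2.56% and 51.3 ± 1.14% in the same groups. In WT c-kit+ Itga6 was above Itga4 in replicates 1 and 3 and just below it in replicate 2, and the other groups had more Itga4 than Itga6 in every library.

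**Figure D3:**
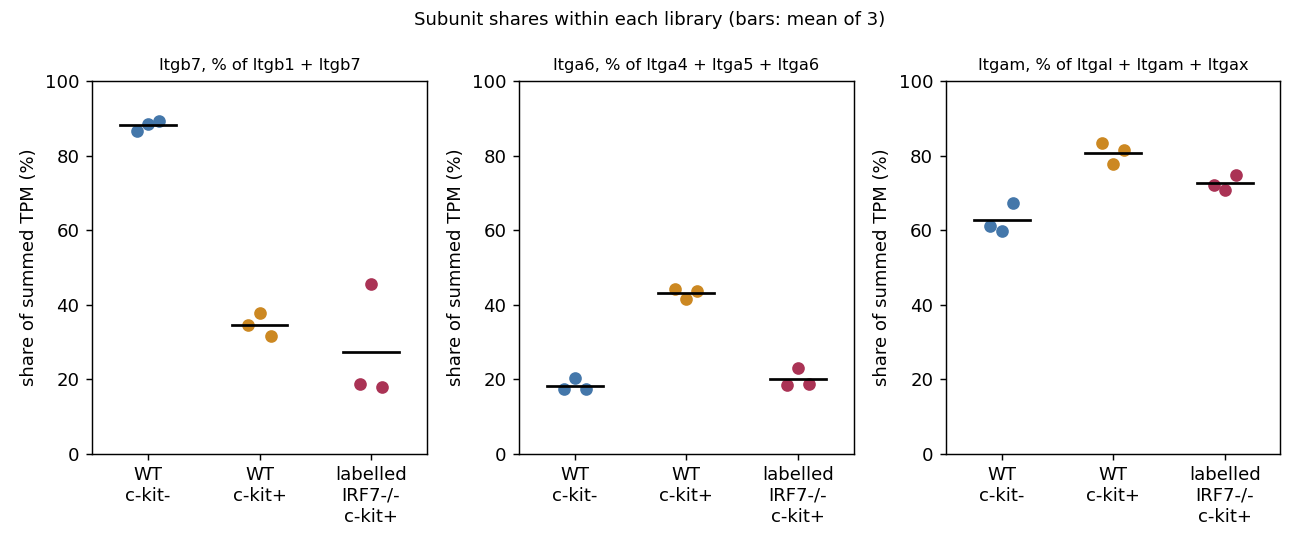
Share of summed TPM taken by Itgb7 among Itgb1 and Itgb7, by Itga6 among Itga4, Itga5 and Itga6, and by Itgam among Itgal, Itgam and Itgax, in percent from 0 to 100; a point is 1 library and a bar the mean of 3. The Itgb7 share is 86.7 to 89.4% in WT c-kit- and at most 45.5% elsewhere, and the Itga6 share is 41.4 to 44.3% in WT c-kit+ and at most 22.9% elsewhere.

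Itgb2 and its partners Itgam and Itgal were lowest in the labelled libraries. Itgb2, the shared β chain of LFA-1 and Mac-1, stood at 408, 360 and 523 TPM in WT c-kit-, at 357, 239 and 341 TPM in WT c-kit+ and at 195, 207 and 229 TPM in the labelled libraries. The groups fell in this order without overlap, although the gap between neighbouring groups was small beside the spread within the WT groups. Labelled libraries were lower than WT c-kit- by −1.01 (SE 0.14, limma adjusted p = 0.000898) and lower than WT c-kit+ by −0.55 (SE 0.16, limma adjusted p = 0.0256). The second call was lost with no filter on low genes and without 4 of the 6 libraries in turn, labelled replicates 1 and 2 and WT c-kit+ replicates 1 and 3 (limma adjusted p from 0.00142 to 0.0801 over 13 alternatives). WT c-kit+ and WT c-kit- differed by −0.46 (95% interval −0.93 to −0.0018, limma adjusted p = 0.099).

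Itgam, which marks granulocytes and monocytes as CD11b, stood at 205, 195 and 302 TPM in WT c-kit-, at 307, 193 and 274 TPM in WT c-kit+ and at 118, 124 and 138 TPM in the labelled libraries. The labelled libraries were the lowest without overlap, and the WT groups overlapped. The mean was 2.03-fold higher in WT c-kit+ than in the labelled libraries (−0.99 for labelled against WT c-kit+, SE 0.17, limma adjusted p = 0.00359) and 1.84-fold higher in WT c-kit- (−0.85, SE 0.17, limma adjusted p = 0.00446). WT c-kit+ and WT c-kit- differed by 0.14 (95% interval −0.40 to 0.68, limma adjusted p = 0.653). The annotation places Gm49368 on the same strand over 68.7% of the exon bases of Itgam, so reads of both may have been split. Gm49368 was 9.11 to 10.5% of their sum in every library, and with both added the fold changes were −1.01, −0.86 and 0.14 in the same order.

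The neutrophil genes were set beside Itgam and Itgb2 library by library. In WT c-kit-, replicate 3 was highest in all 3 measures, with 6219 TPM of neutrophil genes against 1174 and 1566 TPM in its fellows. In WT c-kit+, replicate 2 was lowest in all 3, with 13516 TPM of neutrophil genes. The IRF7−/−-labelled libraries had 283 to 546 TPM, with the highest neutrophil sum in replicate 2 and the highest Itgam and Itgb2 in replicate 3. Between the WT groups the neutrophil sum was higher in WT c-kit+ without overlap, while Itgb2 was lower there and Itgam overlapped. Monocyte and macrophage genes (Csf1r, Ly6c2, Cx3cr1, Adgre1, Ccr2, Cd68) summed to 3922 to 4545, 2037 to 2286 and 2388 to 2965 TPM in WT c-kit-, WT c-kit+ and labelled libraries, with none at 0. Ly6c2 made up most of this sum (means 2967, 1994 and 2455 TPM). Csf1r and Cx3cr1 were lower in labelled libraries than in WT c-kit+, by −0.76 and −1.90 (limma adjusted p = 0.0244 and 0.00700), although the sum was higher. Adgre1 and Ccr2 were higher in labelled libraries, by 0.95 and 0.61 (limma adjusted p = 0.00892 and 0.0298). Ly6c2 and Cd68 were not called between the c-kit+ groups (limma adjusted p = 0.0561 and 0.115). These genes are named after their values were seen. The part of these cell types in the Itgam and Itgb2 differences was not tested.

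**Figure D4:**
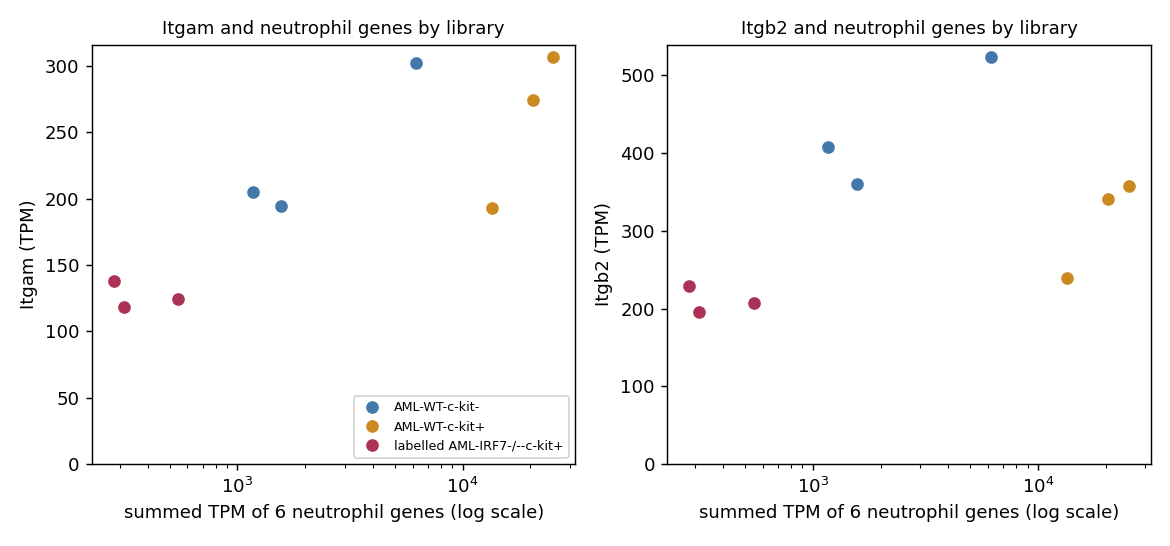
Itgam (left) and Itgb2 (right) in TPM against the summed TPM of 6 neutrophil genes on a log axis; a point is 1 of the 9 libraries and colors give the groups. The labelled libraries lie lowest on both axes, while the Itgam ranges of the WT groups overlap although their neutrophil sums do not (1174 to 6219 TPM in WT c-kit- and 13516 to 25249 TPM in WT c-kit+).

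Itgal, the α chain of LFA-1, stood at 125, 123 and 141 TPM in WT c-kit-, at 60.7, 53.6 and 61.5 TPM in WT c-kit+ and at 44.6, 50.2 and 44.6 TPM in the labelled libraries. No group overlapped another, and the wide gap was the one between c-kit- and c-kit+. Its mean was 2.21-fold higher in WT c-kit- than in WT c-kit+ (−1.13 for WT c-kit+ against WT c-kit-, SE 0.08, limma adjusted p = 0.000105) and 2.79-fold higher than in the labelled libraries (−1.46, SE 0.08, limma adjusted p = 2.1e-05). The smaller difference between the c-kit+ groups (−0.33, SE 0.08, limma adjusted p = 0.0148) lost its call without labelled replicates 1 or 3 and without WT c-kit+ replicates 1 or 3 (limma adjusted p from 0.00612 to 0.0553 over 13 alternatives).

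Itgax, which marks dendritic cells and some monocytes as CD11c, was the least abundant subunit. It stood at 6.22, 7.81 and 6.47 TPM in WT c-kit-, at 1.00, 1.90 and 1.22 TPM in WT c-kit+ and at 1.34, 1.23 and 2.09 TPM in the labelled libraries. All c-kit- libraries were above all c-kit+ libraries, and the c-kit+ groups overlapped. Against WT c-kit-, WT c-kit+ was lower by −1.74 (SE 0.18, limma adjusted p = 0.00043) and the labelled libraries by −1.63 (SE 0.17, limma adjusted p = 0.000279). Between the c-kit+ groups the difference was 0.11 (95% interval −0.39 to 0.60, limma adjusted p = 0.695). Itgal and Itgax, but not Itgam, were thus called lower in WT c-kit+ than in WT c-kit-.

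The balance of the β2 partners differed accordingly. Itgam was 62.7 ± 3.95% of the sum of Itgal, Itgam and Itgax in WT c-kit-, 80.7 ± 2.85% in WT c-kit+ and 72.5 ± 2.04% in the labelled libraries, without overlap. Itgam over Itgb2 was 0.540 ± 0.0375, 0.823 ± 0.0308 and 0.603 ± 0.00379, again without overlap. The 3 α messages together over Itgb2 came to 0.863 ± 0.0407, 1.02 ± 0.0274 and 0.832 ± 0.0212, with WT c-kit+ above the other groups, which overlapped. Within a group these ratios varied less than the Itgam level did, since the coefficient of variation of Itgam was 25.3, 22.8 and 7.87% in the 3 groups.

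Itgb3, the β chain of the vitronectin and platelet fibrinogen receptors, stood at 17.2, 16.2 and 11.4 TPM in WT c-kit-, at 3.75, 4.11 and 4.98 TPM in WT c-kit+ and at 6.98, 14.2 and 8.14 TPM in the labelled libraries. WT c-kit+ was lowest without overlap, and labelled replicate 2 fell within the WT c-kit- range. Itgb3 was lower in WT c-kit+ than in WT c-kit- by −1.58 (SE 0.18, limma adjusted p = 0.000638), and the labelled libraries were higher than WT c-kit+ by 0.98 (SE 0.25, limma adjusted p = 0.0171). Without WT c-kit+ replicate 1 the second call was lost (limma adjusted p = 0.0559; 0.011 to 0.0559 over 13 alternatives). Against WT c-kit- the labelled libraries differed by −0.60 (95% interval −1.24 to 0.04, limma adjusted p = 0.0957), and by −0.88 without labelled replicate 2 (limma adjusted p = 0.0124; 0.0124 to 0.257 over 13 alternatives). Of the α partners of Itgb3, Itgav had 11.01 ± 1.09, 7.77 ± 0.482 and 9.95 ± 0.841 TPM and Itga2b 0.880 ± 0.656, 1.30 ± 0.538 and 3.04 ± 0.456 TPM. The 9 megakaryocyte and platelet genes, Itga2b among them, summed to 6.68 to 8.15 TPM in WT c-kit-, 13.0 to 14.4 TPM in WT c-kit+ and 10.8 to 15.6 TPM in labelled libraries. Pf4 and Gp6 were among those at 0 in WT c-kit- and Ppbp in WT c-kit+. Among them Gp9 had means of 0.443, 7.77 and 7.69 TPM, while Vwf was lower in WT c-kit+ (1.45 TPM) than in WT c-kit- by −1.17 (limma adjusted p = 0.000808). Both are named after their values were seen, and the part of these cells in Itgb3 was not tested.

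Other lineages that carry integrins gave low sums over the 9 libraries: 1.48 to 5.65 TPM for 6 T cell genes, 1.48 to 8.13 TPM for 5 NK cell genes and 2.87 to 11.6 TPM for 6 erythroid genes. B cell genes summed to 26.9 to 38.7 TPM, of which Cd79b gave all but at most 2.53 TPM, and 7 endothelial and stromal genes to 16.8 to 59.5 TPM, of which Lepr gave all but at most 2.07 TPM. Mast cell and basophil genes summed to 20.0 to 45.1, 37.2 to 78.4 and 66.0 to 84.3 TPM in the 3 groups, with Tpsb2 at 0 in each. Their part in the integrin differences was not tested.

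Of the 17 other integrin subunits of the genome, 7 were high enough to be tested between the c-kit+ groups. In the labelled libraries 4 were higher (31.9% of all genes) and 2 lower (16.1%), with a median of 0.32 beside 0.12 over all genes. Of the 4, Itgav lost its call under median centring (limma adjusted p = 0.110) and quantile normalization (limma adjusted p = 0.121), which leaves 3. In these settings 5921 and 5912 of 13238 genes were called, 56.1 and 55.1% of them higher. Itgb2l, a β2-like paralog of Itgb2 whose reads may be shared with it, had 43.7 ± 41.3 TPM in WT c-kit-, 145 ± 46.0 TPM in WT c-kit+ and 4.34 ± 2.47 TPM in the labelled libraries, and is thus uncertain. It was lower in labelled than in WT c-kit+ libraries by −4.82 (SE 0.36, limma adjusted p = 0.000175), and higher in WT c-kit+ than in WT c-kit- by 2.04 (SE 0.60, limma adjusted p = 0.0335). Itgb5, a partner of Itgav, had 32.2 ± 5.91, 6.77 ± 1.26 and 42.1 ± 3.77 TPM, so that labelled libraries exceeded WT c-kit+ by 2.48 (SE 0.14, limma adjusted p = 6.6e-05). Itga9, which like Itga4 forms a VCAM1 receptor with Itgb1, had 0.0233 ± 0.0115, 0.553 ± 0.411 and 6.30 ± 2.12 TPM and was higher in the labelled libraries than in WT c-kit+ by 2.22 (SE 0.29, limma adjusted p = 0.00135). The collagen receptor subunit Itga1 had 62.5 ± 9.34, 15.3 ± 3.11 and 6.03 ± 4.97 TPM and was lower in labelled libraries than in WT c-kit+ by −1.41 (SE 0.44, limma adjusted p = 0.0368). In WT c-kit+ against WT c-kit-, Itgb2l was the 1 of 6 tested that was higher (14.0% of all genes). Itgb5, Itga1 and Itgav were the 3 lower ones (27.6%), and Itgav lost its call under median centring and quantile normalization. Of all calls there, 54.0% were higher in both settings. Against WT c-kit-, 3 of 7 tested were higher (30.7% of all genes) and 2 lower (28.7%) in the labelled libraries.

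RNA of several integrin ligands was found in the sorted cells themselves. Vcam1, the ligand of VLA-4, stood at 0.22, 0.32 and 0.50 TPM in WT c-kit-, at 9.20, 7.42 and 12.7 TPM in WT c-kit+ and at 106, 76.9 and 107 TPM in the labelled libraries. Fn1, fibronectin, took the reverse order with 1058, 642 and 708 TPM, then 9.54, 10.2 and 25.3 TPM, then 1.83, 3.23 and 3.57 TPM. Neither gene overlapped between groups. Labelled libraries exceeded WT c-kit+ by 3.19 for Vcam1 (SE 0.20, limma adjusted p = 0.000101) and lay below it by −1.94 for Fn1 (SE 0.38, limma adjusted p = 0.00617). Icam1, a ligand of LFA-1 and Mac-1, had 11.6 ± 1.17, 5.11 ± 0.476 and 12.5 ± 2.57 TPM, and Thbs1, thrombospondin, 33.2 ± 37.1, 18.9 ± 9.28 and 0.437 ± 0.304 TPM. Of 18 ligand genes, 8 could be tested between the c-kit+ groups, where 31.9% of all genes were called higher and 16.1% lower. Vcam1, Icam1, Icam2 and Emilin1 were higher in labelled libraries and Thbs1, Fn1, Spp1 and F11r lower, of which Icam2, Emilin1 and F11r are named after their values were seen. Against WT c-kit-, WT c-kit+ had 2 of 8 higher (14.0% of all genes), among them Vcam1 (2.97, SE 0.21, limma adjusted p = 8.3e-05). Lower there were 3 (27.6%), Fn1, Spp1 and Icam1. Under median centring and quantile normalization F11r was called higher too (limma adjusted p = 0.0236 and 0.0467), which makes 3 higher and 3 lower. Of all calls, 54.0% were higher in both settings. In labelled against WT c-kit- libraries, 3 of 7 tested were higher (30.7% of all genes) and 3 lower (28.7%). Madcam1, the ligand of the Itga4 and Itgb7 pair, was listed at 0 in all 9 libraries.

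Genes that switch integrins on from inside the cell differed in both directions between the c-kit+ groups. Tln1 (talin), which binds β tails, had 327 ± 8.95, 224 ± 9.86 and 247 ± 5.86 TPM, and Fermt3 (kindlin-3), its blood cell partner, 256 ± 15.4, 277 ± 9.26 and 274 ± 3.44 TPM. Between the c-kit+ groups they differed by 0.14 (SE 0.05, limma adjusted p = 0.0669) and −0.02 (SE 0.05, limma adjusted p = 0.793). Of 13 activators tested there, 5 were higher (31.9% of all genes) and 4 lower (16.1%) in the labelled libraries. Their median was 0.01 beside 0.12 over all genes. Skap2 lost its call as a higher gene under median centring (limma adjusted p = 0.109) and quantile normalization (limma adjusted p = 0.0799), which makes 4 and 4 with medians of −0.07 and −0.10. Over all genes the medians were then 0.04 and 0.03, and 56.1 and 55.1% of calls were higher. Fyb, an adaptor that couples T cell and myeloid receptors to integrins, was higher by 0.96 (SE 0.11, limma adjusted p = 0.000894) and the GTPase Rap1a by 0.52 (SE 0.06, limma adjusted p = 0.000747). Tln2 was lower by −2.25 (SE 0.43, limma adjusted p = 0.00573) and the Rap1 effector Rassf5 by −0.59 (SE 0.10, limma adjusted p = 0.00299). Against WT c-kit-, WT c-kit+ had 1 activator higher (14.0% of all genes) and 8 lower (27.6%). Fyb led the lower ones (−2.48, SE 0.11, limma adjusted p = 2.3e-05), with Rap1a, Rap1b and the Arf regulator Cyth1 among them. Under median centring and quantile normalization 2 were higher and 7 lower, while 54.0% of all calls were higher in both settings. Fermt3 was then called higher in WT c-kit+ (limma adjusted p = 0.0185 and 0.00958), and Skap2 lost its call as lower (limma adjusted p = 0.0728 and 0.0635). Labelled libraries had 1 higher (30.7% of all genes) and 9 lower (28.7%) than WT c-kit- (median −0.40). The higher ones were 3 under median centring and 2 under quantile normalization, with 9 lower in both. Of all calls, 58.1 and 57.2% were higher in these settings.

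Of 10 genes that hold integrins or their Rap1 switch in check, 2 were higher (31.9% of all genes) in the labelled libraries than in WT c-kit+. Lower there were 3 (16.1%), and the median was −0.13 beside 0.12 over all genes. The Rap GTPase activators Rap1gap and Rasa3 were higher by 0.70 and 0.61 (SE 0.13 and 0.05, limma adjusted p = 0.00598 and 0.000313). Dok2, Sipa1 and Flna (filamin, which competes with talin for β tails) were lower, by −0.70, −0.54 and −0.38. Under median centring or quantile normalization Dok1 and Cytip were called lower too, which makes 5. Of all calls, 56.1 and 55.1% were higher in these settings. In WT c-kit+ against WT c-kit-, 2 were higher (14.0% of all genes) and 4 lower (27.6%). Of the 4, Flna lost its call under median centring and quantile normalization (limma adjusted p = 0.0947 and 0.0514), which leaves 3. There 54.0% of all calls were higher in both settings. Cytip, which binds cytohesin, was lower by −2.07 (SE 0.07, limma adjusted p = 1.1e-05) and Rasa3 by −1.84 (SE 0.07, limma adjusted p = 1.2e-05). In labelled against WT c-kit- libraries 1 was higher (30.7% of all genes) and 6 lower (28.7%). Of the 6, Itgb1bp1 lost its call under both other scalings (limma adjusted p = 0.0850 and 0.0800), which leaves 5. There 58.1 and 57.2% of all calls were higher.

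Most kinases and scaffolds that act after ligand binding were lower in the labelled libraries. Of 14 tested, 9 were lower (16.1% of all genes) and 1 higher (31.9%) than in WT c-kit+ (median −0.42, all genes 0.12). Against WT c-kit-, 13 were lower (28.7% of all genes) and 1 higher (30.7%), with a median of −0.92 beside 0.03 over all genes. The Src family kinase Fgr had 43.7 ± 14.9 TPM in WT c-kit-, 45.7 ± 12.5 TPM in WT c-kit+ and 9.26 ± 0.894 TPM in the labelled libraries, lower than in WT c-kit+ by −2.15 (SE 0.20, limma adjusted p = 0.000423). Vcl (vinculin), which ties talin to actin, had 79.7 ± 6.44, 87.0 ± 13.8 and 25.6 ± 6.57 TPM, lower by −1.74 (SE 0.19, limma adjusted p = 0.000735). Pxn (paxillin), a scaffold that binds the α4 tail, was lower by −0.95 (SE 0.11, limma adjusted p = 0.00091) and the kinase Ptk2b by −0.64 (SE 0.08, limma adjusted p = 0.00134). The single gene higher than in WT c-kit+, Parvb (β-parvin, a partner of integrin-linked kinase), lost its call under both other scalings (limma adjusted p = 0.0616 and 0.0544). In WT c-kit+ against WT c-kit-, 8 were lower (27.6% of all genes) and 0 higher (14.0%) by limma. Under median centring or quantile normalization 5 were lower and 2 (Pxn and Parvg) higher. In these settings 5649 and 5634 of 13261 genes were called, 54.0% of them higher in both. The lowest there was Parvb (−2.68, SE 0.13, limma adjusted p = 2.7e-05), and Lyn (−1.36) and Zyx (−1.07) were lower too. Fgr is a gene of mature granulocytes and monocytes, and the part of these cells in its difference was not tested.

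**Figure D5:**
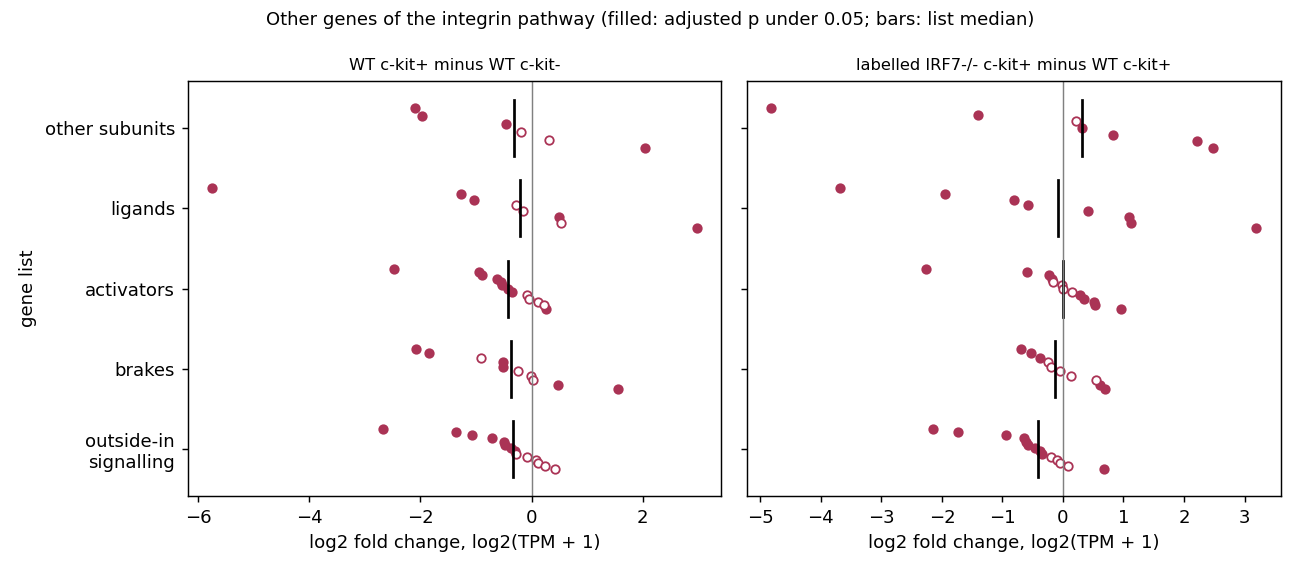
log2 fold changes on log2(TPM + 1) of the tested genes of 5 lists, WT c-kit+ against WT c-kit- on the left and labelled against WT c-kit+ on the right; filled points have a limma adjusted p under 0.05 and bars are list medians. The lowest point among other subunits on the right is Itgb2l at −4.82, and the signalling list has a median of −0.42 there.

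Genes with a pattern like that of a subunit over the 9 libraries were sought among 10284 genes by Pearson's r on log2(TPM + 1), as a description, since the 9 points fall into 3 groups. Itga4 was most like Ice1 (0.995), Lactb (0.990) and Zmiz2 (0.989), with 227 genes above 0.95. Itgb7 was most like Tmem109 (0.996), Abl1 (0.994) and Zmiz1 (0.992), with 469 such genes. Itgam was most like Gm49368 (0.992), which shares its exons, followed by Mcemp1 (0.991) and B430306N03Rik (0.989), with 50 such genes.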

How the data were processed

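RNA from 9 libraries was sequenced after TruSeq preparation, which marks no strand. The values are TPM as the authors deposited them, in 1 table of 55536 genes. The unit was taken from the library sums (987468 to 992231) and the aligner, its settings and the genome build are not given in the sources used here. TPM keep no depth, so no counting intervals are given. All identifiers matched GENCODE M21 on GRCm38. Columns were matched to samples by name, and no sample was left out. The members and gene lists were chosen with earlier results of these data known. The 6 libraries of each comparison were fitted apart from the rest with limma 3.58.1 (R 4.3.3; lmFit, eBayes with trend) on log2(TPM + 1), over genes that reached 1 TPM in 3 or more libraries, with Benjamini-Hochberg adjustment over all genes tested. All 10 members passed this filter. A two-sided exact permutation test of 3 libraries against 3 cannot go below p = 0.1, so only the overlap of groups is given. Named genes are all members, Vcam1, Icam1, Fn1, Itgav, Itga2b, Tln1, Fermt3 and, in each list and both main comparisons, up to 4 called genes with the largest fold change and at least 5 TPM in the higher group; for the likeness, the 3 genes of highest r with a mean of at least 5 TPM. Irf7 and Kit checked the labels. The fit was also run on simulated data in which few genes were shifted, each by more than 1 on the log2 scale. Calls of smaller differences, and calls amid broad shifts as seen here, were not tested by it. Alternatives were no filter, a filter of 5 TPM, a pseudocount of 0.1, median centring, quantile normalization, all 9 libraries in 1 fit, a block for the replicate number, leaving out 1 library at a time, and Itgam summed with Gm49368, the last chosen after seeing the data. Tables and figures were made with Python 3.11.15, pandas 2.3.3 and matplotlib 3.10.9.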

Additional observations from a re-analysis of the deposited data

How the results depend on the processing

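Of 392 alternative fold changes of the 10 subunits, 368 kept direction and side of the threshold, 12 lost and 8 gained a call, and 4 changed sign, none of them a called value. Without labelled replicate 2 the mean Itgb7 share of Itgb1 plus Itgb7 in the labelled libraries was 18.3% in place of 27.4%. The sign changes were between the c-kit+ groups: Itgax (−0.037 without labelled replicate 3, −0.0063 without WT c-kit+ replicate 1, within −0.037 to 0.26 over all 6 left out) and Itgb7 (0.16 and 0.21 without labelled replicates 1 and 3, within −0.68 to 0.21). Leaving out 1 library gave 4 to 7 called subunits between the c-kit+ groups (4535 of 12763 to 5922 of 12857 genes). The 4 came without WT c-kit+ replicate 1, which left Itga5, Itga6, Itgam and Itgb1. In that setting 4762 of 12865 genes were called, beside 6357 of 13238 in the main fit. WT c-kit+ against WT c-kit- gave 8 each time (4207 of 12927 to 4898 of 12830 genes). Labelled against WT c-kit- libraries gave 6 to 8 (6381 of 12911 to 7035 of 12899 genes). When a call also had to reach 1 on the log2 scale, 1, 4 and 4 were made in these comparisons (11.7, 14.4 and 20.3% of all genes). Itga6 in labelled against WT c-kit- libraries gained a call in the fit of all 9 libraries (limma adjusted p = 0.0348) and without labelled replicate 2 (limma adjusted p = 0.0235), within 0.0138 to 0.197 over 13 alternatives. Itgb1 there gained one under quantile normalization (limma adjusted p = 0.0365) and without WT c-kit- replicate 1 (limma adjusted p = 0.0483), within 0.0365 to 0.391. Median centring moved the median of all genes in WT c-kit+ against WT c-kit- from −0.08 to 0.07. The causes of these moves were not tested. Itgax was not high enough to be tested between the c-kit+ groups at a filter of 5 TPM.

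Deviations of same-numbered libraries from their group means correlated by −0.07 to 0.24, and those of different-numbered libraries by −0.18 to 0.14. Most same-numbered values were positive. Most different-numbered values were negative, which is no separate evidence, since deviations from a mean cancel out within a group. Whether the numbers pair libraries is therefore not settled. The labels name no shared animal, and the main fits left the number out. With the replicate block 7 subunits were called between the c-kit+ groups (5826 of 13238 genes). In WT c-kit+ against WT c-kit- 9 were called (5164 of 13261 genes), and in labelled against WT c-kit- libraries 7 (7718 of 13510). Itgb2 in WT c-kit+ against WT c-kit- (limma adjusted p = 0.0247) and Itga6 in labelled against WT c-kit- libraries (limma adjusted p = 0.0138) were gained, and no other call changed.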
